A study of Drosophila melanogaster with 6 samples.

Results

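The proteasome is the large protease that degrades proteins tagged with ubiquitin. Its 20S core is a barrel of alpha and beta rings, and the beta rings hold the proteolytic sites. The regulatory particle caps the core, recognises ubiquitin chains, removes them and threads the substrate into the barrel. In flies the subunit genes are known to be expressed in most cells, and several have relatives expressed mainly in the testis.

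The 48 genes described here are all rows of the count tables whose FlyBase symbol starts with Prosalpha, Prosbeta, Rpn plus a digit or Rpt plus a digit, of 17476 genes in all. They comprise 32 canonical subunit genes and 16 relatives (paralogs) named with a T, an R or either letter and a digit. The canonical set holds 7 alpha and 7 beta genes of the 20S core. The other 18 belong to the regulatory particle, with 6 Rpt ATPase genes, 4 other genes of its base and 8 genes of its lid. Of the 48 genes, 32 passed the filter on low counts and entered the test, namely 31 canonical genes and the paralog Rpt3R. The 16 that did not pass were Prosalpha1 and 15 paralogs.

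The study compared wings of 2 genotypes by RNA-seq to find transcripts of the chemosensory bristles. One group carried Poxn 70, an allele of the transcription factor gene pox neuro, whose loss removes these bristles from the wing, and the other was the control strain w1118 Canton-S. The paper cites evidence that in the mutant these bristles turn into mechanosensory ones. It also states that its lines were backcrossed to the control strain. Flies of both groups were aged 3 days after eclosion, their wings were dissected by hand and pooled, and 3 independent pools were sequenced per genotype. The labels and the paper's methods give 8000 wings from 4000 flies per library, which cannot be squared with the wing total in the paper's results, and the size of each pool is therefore uncertain. The labels do not give the sex of the flies. In such bulk tissue, fewer cells of a type and less RNA per cell cannot be told apart.

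The libraries of the 2 labels differed in ways that reach well beyond the proteasome. The libraries labelled Poxn held 14021115 to 16182811 counts on genes, and those labelled control 10074860 to 14269486. Genes with transcripts under 600 nt took 5.68% to 7.03% of these counts in libraries labelled Poxn, against 30.6%, 20.6% and 16.6% in control replicates 1 to 3. The Poxn transcript itself had 92, 86 and 85 counts in the libraries labelled Poxn and 0, 6 and 3 counts in those labelled control, with a log2 fold change of 2.95 ± 0.80 (SE) and an adjusted p of 0.0556 in edgeR's quasi-likelihood test. Because this transcript was higher in the mutant, groups are called by their labels below. All 5 wing marker genes looked for (vg, nub, sd, rn and bs) were counted in every library, and the summed counts of 6 testis genes were 7 to 18 in libraries labelled Poxn, against 5, 6 and 50 in control replicates 1 to 3.

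The subunit genes together took 6027, 5912 and 5898 of every 1000000 gene counts in Poxn replicates 1 to 3, against 1925, 3128 and 5571 in control replicates 1 to 3. With the 50 most abundant genes left out of the total, the shares were 8678, 8250 and 8327 per 1000000 in libraries labelled Poxn and 4774, 7000 and 8790 in those labelled control. The groups did not overlap on the first measure, and control replicate 3 was the highest of all on the second. Because of such differences in what filled the libraries, levels were compared after TMM scaling in edgeR, with factors of 1.76, 1.86 and 1.87 in Poxn replicates 1 to 3 and 0.246, 0.522 and 1.28 in control replicates 1 to 3. CPM below are counts per 1000000 of this effective library size. Log2 fold changes are positive where the libraries labelled Poxn were higher.

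The core and the regulatory particle stood differently in the 2 groups. The 13 tested genes of the 20S core had a median log2 fold change of -1.30, and each of the 13 was negative, from -2.41 to -0.39. The 18 genes of the regulatory particle had a median of -0.09, with 12 negative and 6 positive values from -0.59 to 0.73. Over all 8973 genes tested the median was 0.01. With total counts in place of TMM, the median of all genes moved to 1.39, that of the core to 0.42 with 10 of 13 values positive, and that of the regulatory particle to 1.41, so that the core lay below the median of all genes under both scalings and the regulatory particle close to it.

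At an adjusted p under 0.05, 1 member, Prosalpha3, was lower in the libraries labelled Poxn and 0 were higher, in edgeR's quasi-likelihood test. Among all genes tested, 4.95% were called lower and 2.69% higher. At an unadjusted p under 0.05, 8 members were lower, all of the core, against 17.8% of all genes, and 0 were higher, against 14.1%. In edgeR 0 members passed the stricter criterion of the study, more than 4-fold at an adjusted p under 0.01. In the same test 0.602% of all genes passed it as lower and 0.0557% as higher. The study itself applied this criterion with DESeq2. With DESeq2 2 members passed it as lower, Prosalpha3 (log2 fold change -2.54, adjusted p = 0.00023) and Prosalpha5 (-2.03, adjusted p = 0.0019). The share of all genes that passed it with DESeq2 is not given here. DESeq2 called 12 members lower (16.8% of all genes) and limma voom 5 (8.54%), and 0 members higher with either tool (8.08% and 2.49% of all genes). Of the 12 members that DESeq2 called, 11 belonged to the core and the other was Rpn12.

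**Figure D1:**
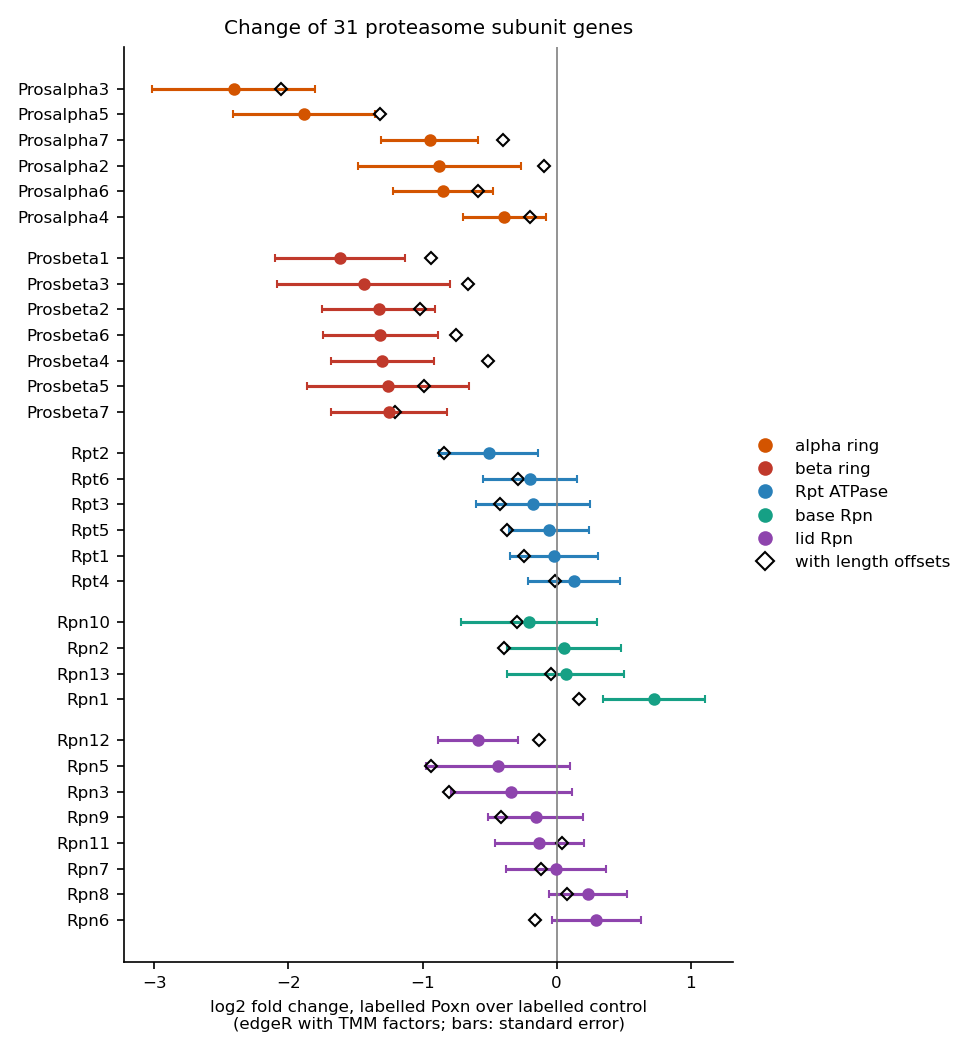
Log2 fold change of the 31 tested canonical subunit genes (horizontal axis, labelled Poxn over labelled control, edgeR with TMM factors), grouped by place in the complex. Filled points with bars show the value and its standard error, and open diamonds the value after a correction for transcript length. All 13 core genes lie left of 0 and the 18 regulatory particle genes lie on both sides of it.

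The alpha rings form the outer gates of the barrel. Prosalpha3 (FBgn0261394; 2R, 20994900 to 20996118, forward strand, release 6 assembly) had 74.7, 98.8 and 68.6 CPM in Poxn replicates 1 to 3, against 345.9, 758.4 and 181.5 CPM in control replicates 1 to 3. Every library labelled Poxn lay below every control library, and control replicate 2 stood far above the rest. The log2 fold change was -2.41 ± 0.61 (SE), with an adjusted p of 0.0493 in edgeR's quasi-likelihood test. Over 15 other settings of the analysis the adjusted p ran from 0.00023 to 0.453, and 9 of them ended the call. Without control replicate 2 the log2 fold change was -1.69, with an adjusted p of 0.0223 in the edgeR fit, whereas leaving out control replicate 1 or any Poxn library ended the call, with values from -2.57 to -2.29 and adjusted p from 0.0658 to 0.209 in the edgeR fit. Of all counts on canonical subunit genes, Prosalpha3 took 2.18%, 3.11% and 2.16% in Poxn replicates 1 to 3 and 4.42%, 12.6% and 4.16% in control replicates 1 to 3.

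Prosalpha2 (FBgn0086134; 3R, 12431321 to 12432556, forward strand) had the highest level per length among the alpha genes. It had 209.6, 176.2 and 174.1 CPM in Poxn replicates 1 to 3 and 623.9, 123.0 and 280.4 CPM in control replicates 1 to 3. The groups overlapped, since control replicate 2 was the lowest library of the 6, although it was the highest for Prosalpha3. The log2 fold change was -0.87 ± 0.61 (SE; adjusted p = 0.360, edgeR), -0.11 without control replicate 1 and -0.095 with offsets for transcript length. The other 4 tested alpha genes, named after their values were seen, were Prosalpha5 at -1.88 (adjusted p = 0.0590, edgeR), Prosalpha7 at -0.95, Prosalpha6 at -0.85 and Prosalpha4 at -0.39 on the log2 scale. Their libraries did not overlap. With total counts as library sizes, the values of Prosalpha2, Prosalpha4, Prosalpha6 and Prosalpha7 were positive (0.82, 1.06, 0.66 and 0.50), against 1.39 for the median of all genes.

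Prosalpha1 (FBgn0263121; 2R, 7827303 to 7828678, reverse strand) was the exception among the canonical genes, with 0, 1 and 2 counts in Poxn replicates 1 to 3 and 0, 4 and 1 in control replicates 1 to 3. The other 31 canonical genes had at least 79 counts in every library. Prosalpha1 has a neighbouring relative on the same strand, Prosalpha1R (2R, 7830413 to 7831771), which had 0 counts in each library labelled Poxn and 0, 4 and 0 in control replicates 1 to 3. Reads that aligned to more than 1 place were set apart in the deposited tables and made up 6.60% to 6.82% of all reads in libraries labelled Poxn and 12.2%, 5.76% and 12.1% in control replicates 1 to 3. Whether such reads came from this pair was not tested, and a count near 0 is therefore no measure of its expression.

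The beta rings carry the 3 catalytic subunits. Prosbeta1, which in flies as in other eukaryotes holds the caspase-like site (FBgn0010590; 2R, 16013805 to 16014787, reverse strand), had 214.8, 194.3 and 165.3 CPM in Poxn replicates 1 to 3, against 615.7, 744.1 and 403.8 CPM in control replicates 1 to 3. It had a log2 fold change of -1.62 ± 0.48 (SE; adjusted p = 0.0660, edgeR). Each library labelled Poxn was below each control library, but the difference did not pass the threshold. With total counts the value was -0.012, and with offsets for transcript length it was -0.94. Over 15 other settings the adjusted p ran from 8.3e-05 with DESeq2 to 0.989 with total counts in edgeR, and 5 of them passed the threshold, namely DESeq2, limma voom and the edgeR fits without control replicate 2, without control replicate 3 and without both control replicates 1 and 2.

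Prosbeta2, with the trypsin-like site (FBgn0023174; 3L, 14999951 to 15001319, forward strand), had 68.4, 61.0 and 69.1 CPM in Poxn replicates 1 to 3 and 166.7, 233.9 and 97.7 CPM in control replicates 1 to 3. It had a log2 fold change of -1.33 ± 0.42 (SE; adjusted p = 0.0756, edgeR) and 0.33 with total counts. It was the beta gene with the lowest level per length, and its groups did not overlap.

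Prosbeta5, with the chymotrypsin-like site (FBgn0029134; 2R, 10819978 to 10821178, forward strand), was the most abundant subunit transcript per length. It had 486.1, 402.2 and 330.7 CPM in Poxn replicates 1 to 3, against 1641, 664.9 and 605.5 CPM in control replicates 1 to 3. Control replicate 1 was far above the other libraries, and the groups did not overlap. The log2 fold change was -1.26 ± 0.61 (SE; adjusted p = 0.192, edgeR), -0.64 without control replicate 1 and 0.54 with total counts.

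The 7 beta genes lay close together, with log2 fold changes from -1.62 to -1.25, whereas the 6 tested alpha genes ran from -2.41 to -0.39. In 12 of the 13 core genes, all but Prosalpha2, the libraries labelled Poxn were all lower than those labelled control on the TMM scale. Among all genes tested this held for 17.9%, and the reverse for 22.5%. Without control replicates 1 and 2, an alternative chosen after seeing the data, the core median was -0.59, 6 core genes were called lower in the edgeR fit (16.7% of all genes), and the 2 members called higher were Rpn1 and Rpn2 (17.1% of all genes).

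The 6 Rpt ATPases form the ring that unfolds substrates. Rpt3 (FBgn0028686; X, 11125101 to 11126785, forward strand), highest per length over the 6 libraries, had 124.2, 120.6 and 147.5 CPM in Poxn replicates 1 to 3 and 216.0, 96.1 and 131.2 CPM in control replicates 1 to 3. Rpt5 (FBgn0028684; 3R, 23752876 to 23754623, forward strand), the lowest, had 38.3, 32.4 and 42.5 CPM in Poxn replicates 1 to 3 and 41.5, 40.5 and 35.7 CPM in control replicates 1 to 3. The groups overlapped for both genes. Their log2 fold changes were -0.18 ± 0.42 and -0.05 ± 0.30 (SE; adjusted p = 0.809 and 0.916, edgeR), and 1.40 and 1.43 with total counts. The 6 genes together ran from -0.51 to 0.13, with a median of -0.12.

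The base also holds the ubiquitin receptors Rpn10 and Rpn13 and the scaffold subunits Rpn1 and Rpn2. Rpn13 (FBgn0033886; 2R, 13958545 to 13960404, reverse strand) had 109.9, 127.2 and 117.0 CPM in Poxn replicates 1 to 3 and 123.9, 57.5 and 156.6 CPM in control replicates 1 to 3. Rpn2 (FBgn0028692; 3R, 29153524 to 29157255, forward strand) had 38.9, 36.4 and 33.7 CPM in Poxn replicates 1 to 3 and 24.8, 58.6 and 21.5 CPM in control replicates 1 to 3. Control replicate 2 was the lowest library for Rpn13 and the highest for Rpn2, so the order of the control libraries differed between these genes. The log2 fold changes were 0.07 ± 0.44 for Rpn13 and 0.05 ± 0.43 for Rpn2 (SE; adjusted p = 0.932 and 0.944, edgeR), and both were negative with RLE size factors (-0.06 and -0.07). Rpn1, named after its values were seen, had the highest fold change of all members, 0.73 ± 0.38 (SE; adjusted p = 0.224, edgeR), and was called higher without control replicate 2, at 1.11 with an adjusted p of 0.0258 in the edgeR fit.

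The lid includes Rpn11, the enzyme that cuts ubiquitin chains off the substrate. Rpn11 (FBgn0028694; 2L, 5058404 to 5059790, reverse strand) had 94.0, 88.4 and 79.5 CPM in Poxn replicates 1 to 3 and 85.2, 87.8 and 113.2 CPM in control replicates 1 to 3. The groups overlapped, and the log2 fold change was -0.13 ± 0.33 (SE; adjusted p = 0.821, edgeR), or 1.18 with total counts. The structural lid subunits Rpn7 (FBgn0028688; 3R, 22460662 to 22462054, reverse strand) and Rpn5 (FBgn0028690; 3R, 5789493 to 5791569, forward strand) had the highest and the lowest level per length of the lid.

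Rpn7 had 167.4, 169.7 and 137.6 CPM in Poxn replicates 1 to 3 and 151.6, 186.9 and 138.2 CPM in control replicates 1 to 3. Rpn5 had 55.0, 42.0 and 61.7 CPM in Poxn replicates 1 to 3 and 46.5, 136.1 and 32.4 CPM in control replicates 1 to 3. For both genes the groups overlapped, and control replicate 2 was the highest library. The log2 fold change of Rpn5 was -0.44 ± 0.54 (SE; adjusted p = 0.614, edgeR) with all libraries and 0.45 without control replicate 2. Exons of other genes overlap 13 canonical genes on the opposite strand (Prosalpha1, Prosalpha2, Prosbeta1 to Prosbeta5, Rpt2, Rpt4, Rpt5, Rpt6, Rpn7 and Rpn9), and reads of such pairs cannot be told apart where counting ignores strand. Among the 18 regulatory particle genes, 2 were lower and 2 higher in every library labelled Poxn on the TMM scale, against 17.9% and 22.5% of all genes.

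A ratio within a library does not depend on its scaling factor. The summed counts of the core genes divided by those of the regulatory particle were 1.27, 1.10 and 1.02 in Poxn replicates 1 to 3, against 3.55, 2.62 and 1.94 in control replicates 1 to 3. The means were 1.13 ± 0.124 for the libraries labelled Poxn and 2.70 ± 0.807 for those labelled control (SD, n = 3 each), and the groups did not overlap. The alpha genes over the regulatory particle gave 0.361 ± 0.0319 in libraries labelled Poxn and 0.854 ± 0.208 in those labelled control (SD, n = 3 each). The beta genes over the regulatory particle gave 0.769 ± 0.0920 in libraries labelled Poxn and 1.85 ± 0.662 in those labelled control (SD, n = 3 each). For both kinds of ring the libraries labelled Poxn all lay below the control libraries.

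Within the core and within the regulatory particle the group means lay closer together than the libraries. The ratio of alpha to beta counts was 0.470 ± 0.0146 in libraries labelled Poxn and 0.481 ± 0.121 in those labelled control (SD, n = 3 each). The ratio of Rpt to lid counts was 0.944 ± 0.0221 in libraries labelled Poxn and 0.983 ± 0.216 in those labelled control (SD, n = 3 each). Of all counts on canonical members, 11 of 18 regulatory particle genes took a higher share in every library labelled Poxn than in any control library, and 0 took a lower one. Among the 13 core genes, 5 took a lower share in every library labelled Poxn and 0 a higher one. Shares within a library have a fixed sum. These counts of genes therefore largely restate the core to regulatory particle ratio and are no separate evidence.

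**Figure D2:**
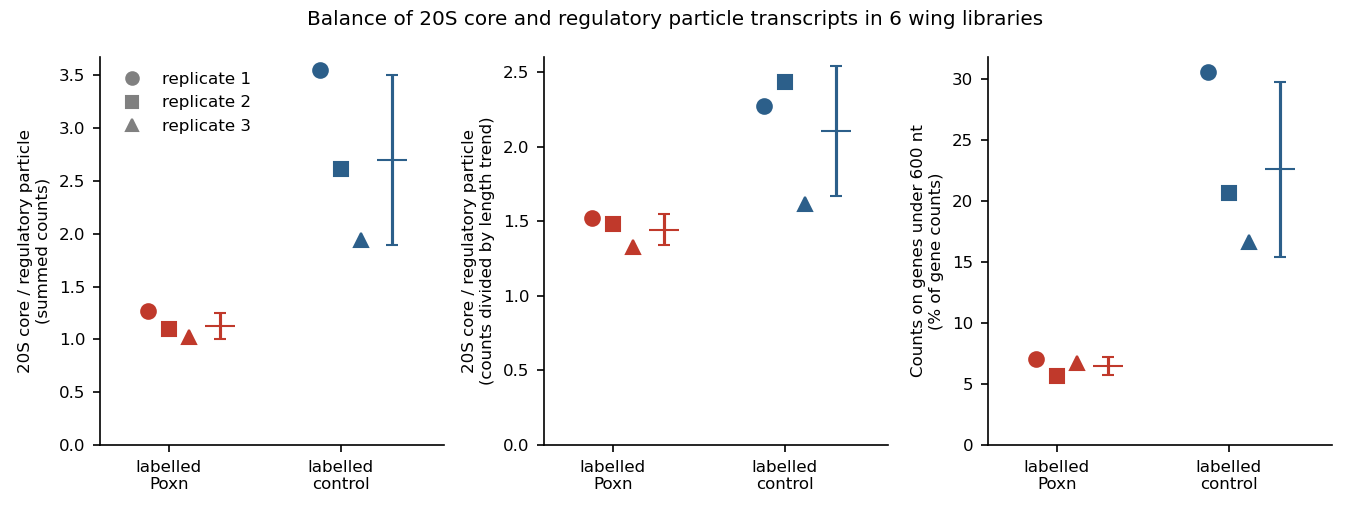
Ratio of summed 20S core to regulatory particle counts (left), the same ratio after dividing each gene's counts by its library's trend with transcript length (middle), and the percentage of gene counts on genes under 600 nt (right), in the 3 libraries labelled Poxn and the 3 labelled control. Marker shapes give the replicate number, and bars give mean and SD. The groups are apart in all 3 panels, least in the middle one, where the libraries labelled Poxn reach 1.52 and the lowest control library is at 1.61.

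Core and regulatory particle also differ in transcript length. The longest annotated transcripts of the tested core genes span 815 to 1215 nt (median 973 nt), and those of the regulatory particle 995 to 3412 nt (median 1534 nt). Across the 31 tested canonical genes, which share the same 6 libraries, Spearman's rho between length and log2 fold change was 0.785, against 0.300 across 8841 genes with a length. Within the core it was 0.560 (13 genes) and within the regulatory particle 0.187 (18 genes). All genes tested varied with length too, with a median log2 fold change of -1.90 for transcripts under 600 nt and 0.58 for those from 2000 to 3000 nt. Beyond that length the median fell again, to 0.38 from 3000 to 5000 nt and to -0.19 from 5000 nt upward.

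Genes of like length therefore give the closer comparison. The 1161 tested genes whose transcripts fall in the core's length range had a median log2 fold change of -0.60, against -1.30 for the core genes, and 5.60% of the 1161 were called lower. After offsets for each library's length trend in the edgeR fit, the median of the core genes was -0.75 and that of the 1161 genes -0.06. For the 18 genes of the regulatory particle it was -0.27, and for the 5238 genes in their length range -0.03. With these offsets 0 members were called in either direction, against 1.78% of all genes lower and 0.635% higher, and 2 members were lower and 0 higher at an unadjusted p under 0.05 (14.7% and 8.89% of all genes). The core to regulatory particle ratio divided by the length trend was 1.52, 1.48 and 1.33 in Poxn replicates 1 to 3 and 2.27, 2.43 and 1.61 in control replicates 1 to 3. The groups still did not overlap, but control replicate 3 lay closer to Poxn replicate 1 than to the other control libraries. The part of library composition in what remains was not tested.

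**Figure D3:**
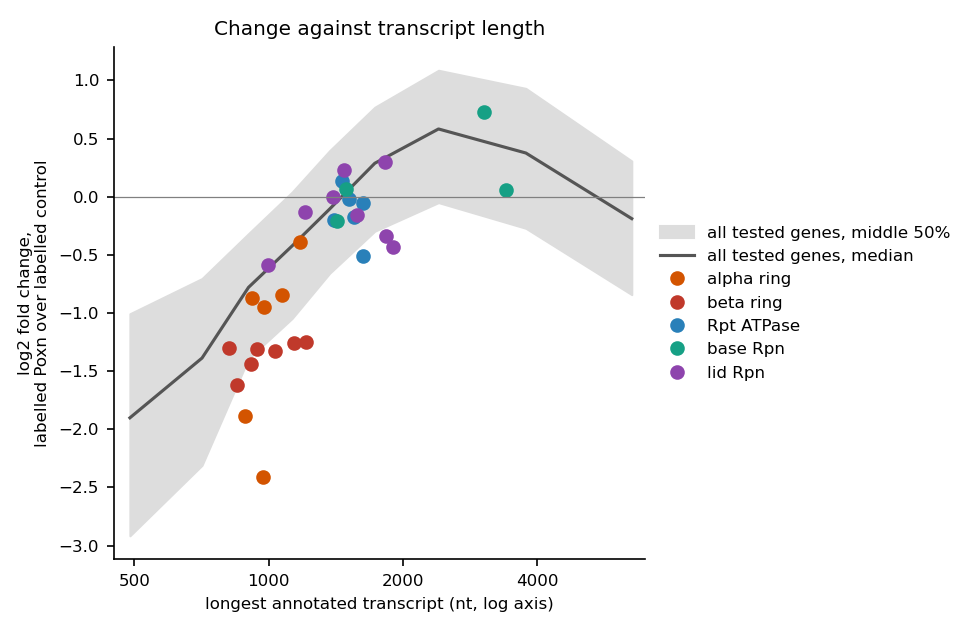
Log2 fold change (vertical axis, labelled Poxn over labelled control) against the longest annotated transcript (horizontal axis, nt, log scale) for the 31 tested canonical genes, coloured by place in the complex. The line joins the medians of all tested genes in classes of length and the band spans the middle 50% of them. The 7 beta genes lie below the line, some of them inside the band, Prosalpha3 and Prosalpha5 lie below the band, and the regulatory particle genes lie mostly inside it.

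Levels of different genes were compared per kb of longest transcript, as counts per kb per 1000000 gene counts. Prosbeta5 averaged 648 ± 105 in libraries labelled Poxn and 446 ± 204 in those labelled control (SD, n = 3 each), and it ranked first in 5 of the 6 libraries. In control replicate 2 Prosbeta1 ranked first and Prosalpha3 was second. For Prosbeta5 the groups overlapped on this scale, with control replicate 3 at 679 and Poxn replicates 2 and 3 at 656 and 540. At the other end, Rpn2 averaged 19.4 ± 0.899 in libraries labelled Poxn and 6.27 ± 3.90 in those labelled control (SD, n = 3 each) and was the lowest of the 31 genes in every library.

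The core genes lay above most of the regulatory particle genes in both groups. The median level of the 13 core genes was 171, 158 and 160 per kb per 1000000 in Poxn replicates 1 to 3 and 81.1, 135 and 222 in control replicates 1 to 3. The median of the 18 regulatory particle genes was 87.8, 96.9 and 104 per kb per 1000000 in Poxn replicates 1 to 3 and 16.6, 31.8 and 76.4 in control replicates 1 to 3. On this scale, which uses no TMM factors, the libraries labelled Poxn lay within the control range for the core and above it for the regulatory particle. The assembled core holds each of its subunits in equal number, whereas the transcripts of its 13 tested genes ran from 91.3 to 749 per kb per 1000000 in Poxn replicate 1.

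**Figure D4:**
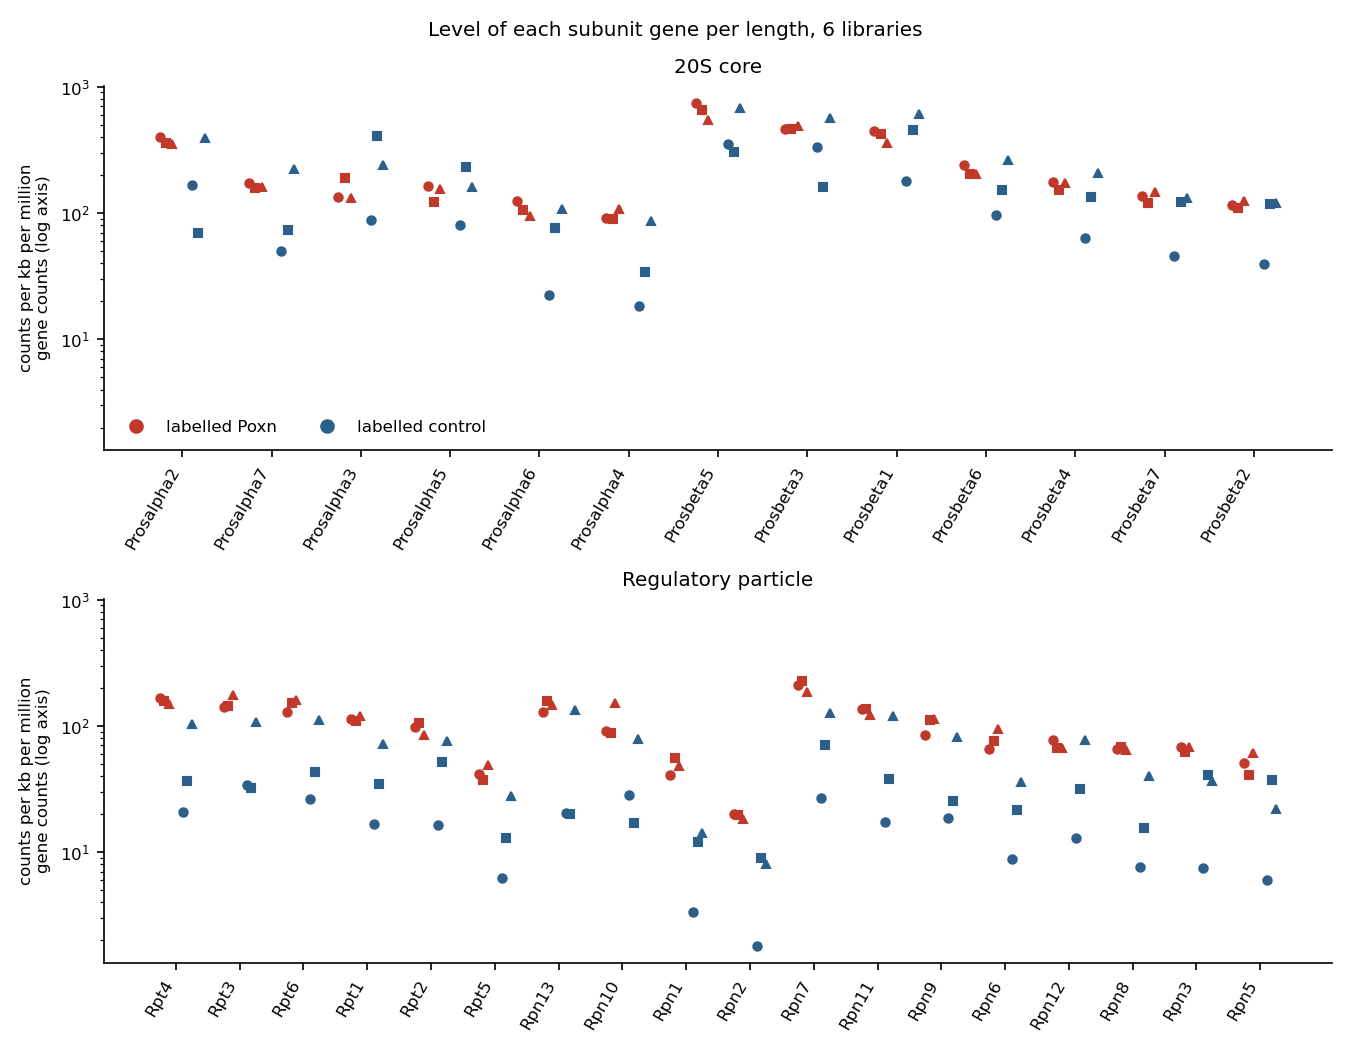
Level of each of the 31 tested canonical genes in counts per kb of longest transcript per 1000000 gene counts (log axis), 20S core above and regulatory particle below. Points left of each gene's position are the 3 libraries labelled Poxn and points right of it the 3 labelled control, with marker shapes for replicates 1 (circle), 2 (square) and 3 (triangle). The libraries labelled Poxn cluster tightly, and control replicate 1 is the lowest library for most genes.

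Replicates of the libraries labelled Poxn repeated the levels of single members better than the control libraries did. The coefficient of variation of TMM-scaled levels had a median of 10.9% over the 13 core genes in libraries labelled Poxn and 37.6% in those labelled control. For the 18 regulatory particle genes it was 11.3% in libraries labelled Poxn and 20.5% in those labelled control. Over all genes tested it was 14.6% in libraries labelled Poxn and 52.9% in those labelled control. The medians of both sets of members lay below that of all genes in each group. Genes of like count level were not compared, so whether the members varied less than other genes of their level was not tested.

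The 16 paralogs gave 59, 47 and 49 counts in all in Poxn replicates 1 to 3 and 5, 10 and 52 in control replicates 1 to 3. Rpt3R (FBgn0037742; 3R, 9754735 to 9756510, reverse strand), the only one tested, had 17, 23 and 23 counts in Poxn replicates 1 to 3 and 1, 4 and 23 in control replicates 1 to 3. It had a log2 fold change of -0.26 ± 0.53 (SE; adjusted p = 0.774, edgeR), and it was positive, 0.96, with total counts. An exon of Alg12 overlaps it on the opposite strand, and the strand setting of the counting is not given in the sources used here.

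Rpn13R (FBgn0029745; X, 5131898 to 5132985, forward strand) had 23, 9 and 14 counts in Poxn replicates 1 to 3 and 1, 1 and 3 in control replicates 1 to 3. On the TMM scale the groups overlapped, at 0.829, 0.299 and 0.537 CPM in Poxn replicates 1 to 3 and 0.314, 0.190 and 0.165 CPM in control replicates 1 to 3. Prosalpha4T2 (FBgn0017556; 2R, 24500780 to 24502277, reverse strand) had 6, 4 and 2 counts in Poxn replicates 1 to 3 and 0, 0 and 2 in control replicates 1 to 3. None of the other 13 paralogs had more than 7 counts in any library, and a count of 0 allows up to 3 counts. Prosbeta5R2, with 7 counts, Prosbeta4R1, with 4, and Prosbeta5R1 and Rpn12R, with 2 each, were counted in control replicate 3 and, with 1 count of Prosbeta5R2 in Poxn replicate 2, in no other library (named after their values were seen). Prosalpha3T, Prosalpha4T1 and Rpt6R, also named after their values were seen, had counts only in libraries labelled Poxn, at most 3 in any library. Control replicate 3, with 52 counts on all paralogs, was also the library with 50 counts on the 6 testis genes. Poxn replicate 1 had 59 counts on all paralogs and 7 on the testis genes. The part of testis RNA in the paralog counts was not tested.

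Genes that assemble, activate or control the proteasome were counted from lists, chosen with earlier results of these data known. Of 7 tested genes of assembly, activation and associated subunits, 1 was called higher and 0 lower, against 2.69% and 4.95% of all genes, with a median log2 fold change of -0.33. The gene called was CG8858 (FBgn0033698), an identifier without a further name in the annotation, which had 270, 264 and 278 counts in Poxn replicates 1 to 3 and 1, 15 and 23 in control replicates 1 to 3, a log2 fold change of 2.67 ± 0.58 (SE; adjusted p = 0.0353, edgeR) and 2.65 with length offsets. Pomp, the chaperone that matures the core, was at -0.33 ± 0.62, PI31, a binding partner of the core, at -0.54 ± 0.34, and REG, an alternative cap of the core, at 0.18 ± 0.52 (SE, log2 scale; adjusted p = 0.748, 0.307 and 0.837, edgeR). With total counts the values of Pomp, PI31 and REG were 1.41, 0.98 and 1.54. Leaving out 1 Poxn library or control replicate 1 ended the call of CG8858, with adjusted p from 0.0512 to 0.182 in the edgeR fit.

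The transcription factor cnc is the fly relative of the mammalian Nrf factors, which are known in mammals to induce proteasome genes. It had 80.6, 91.6 and 80.9 CPM in Poxn replicates 1 to 3 and 82.7, 180.5 and 47.6 CPM in control replicates 1 to 3. The groups overlapped, with a log2 fold change of -0.29 ± 0.50 (SE; adjusted p = 0.723, edgeR) and 0.39 without control replicate 2. Among 5 tested genes of its pathway 1 was called higher and 0 lower (2.69% and 4.95% of all genes), with a median of 0.97. This was Pngl, an enzyme that removes N-linked sugars, with 19.7, 22.7 and 18.1 CPM in Poxn replicates 1 to 3 and 4.40, 5.71 and 8.67 CPM in control replicates 1 to 3. Its log2 fold change was 1.65 ± 0.36 (SE; adjusted p = 0.0348, edgeR) and 1.04 with length offsets (adjusted p = 0.107, edgeR).

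Shuttle factors and partners of the p97 segregase bring ubiquitylated proteins to the proteasome. Of 5 tested genes 1 was called higher and 0 lower (2.69% and 4.95% of all genes), with a median log2 fold change of 0.22. The gene called was Npl4, a p97 cofactor, with 46.0, 64.1 and 44.5 CPM in Poxn replicates 1 to 3 and 13.8, 23.0 and 17.6 CPM in control replicates 1 to 3. Its log2 fold change was 1.50 ± 0.35 (SE; adjusted p = 0.0395, edgeR) and 0.91 with length offsets (adjusted p = 0.122, edgeR). Leaving out 1 Poxn library or control replicate 1 also ended both calls, with log2 fold changes from 1.48 to 1.74 for Pngl and from 1.32 to 1.61 for Npl4. The call of Pngl was also lost with total counts (2.86, adjusted p = 0.0550, edgeR), and that of Npl4 with the replicate block (1.51, adjusted p = 0.0579, edgeR).

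The genes of 2 other assemblies served as a comparison. The COP9 signalosome, which is related in structure to the lid, had 8 genes tested, a median log2 fold change of 0.18 and 0 calls, with 2 genes higher and 1 lower at an unadjusted p under 0.05 in edgeR, against 14.1% and 17.8% of all genes. The chaperonin CCT had 7 genes tested, a median of 0.57 and 0 calls, with 2 genes higher and 0 lower at that unadjusted p (14.1% and 17.8% of all genes). Their median transcript lengths were 1441 nt and 1964 nt, nearer to the regulatory particle than to the core. By their medians neither stood as low as the 20S core, like the regulatory particle. CSN8, named after its values were seen, has the shortest transcript among the tested genes of these 2 assemblies (641 nt). It was at -1.42 on the log2 scale, and at -0.008 with length offsets. How other assemblies with transcripts as short as those of the core stood was not tested.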

How the data were processed

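Polyadenylated RNA of pooled wings was sequenced, 3 libraries per genotype. Per the submitters' processing notes, reads were trimmed with Trim Galore 0.4.0, aligned with STAR 2.4.2a (FlyBase release 6.09, per the paper) and counted with HTSeq. The authors deposited raw counts per gene, without normalization, and the strand setting of the counting is not given in the sources used here. Lines that name no gene entered neither library sizes nor tests. Reads on no gene made up 49.2% to 49.3% of each library labelled Poxn and 47.9% to 58.6% of each labelled control, and ambiguous reads 1.24% to 2.69%. A table of the authors' own DESeq2 comparison (normalized means, fold changes, p-values), with 6 per-library columns, was not used.

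Counts were tested with edgeR 4.0.16 in R 4.3.3 (TMM factors; filterByExpr at a minimum count of 10; the quasi-likelihood test, adjusted after Benjamini and Hochberg over the 8973 genes kept). Standard errors were derived from each log2 fold change and its F statistic. The code was also run on simulated data, in which both groups had the same spread. The control libraries here varied more than those labelled Poxn, so the simulation does not test the calls under such unequal spread. An Ensembl annotation on assembly release 6 supplied positions and lengths for 17229 of the 17476 genes. Length offsets followed a loess trend (span 0.5). Limits on a count of 0 cover counting error only. The members, lists and tests were chosen with earlier results of these data known. Values per library are given for the catalytic genes and Rpn11, members called, the highest and lowest per length in each group of subunits and the 3 paralogs with the most counts. Genes called in the lists are named as well, with cnc, Pomp, REG and PI31, and others are said to be chosen after their values were seen. Alternatives used RLE factors, total counts, DESeq2 1.42.0, limma 3.58.1 voom with quality weights, other filters, length offsets, a replicate block, and fits that each left out 1 library. Fits without both control replicates 1 and 2, medians per part of the complex and the ratios were chosen after seeing the data.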

Additional observations from a re-analysis of the deposited data

How the results depend on the processing

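Members called lower at an adjusted p under 0.05 numbered 1 with edgeR and TMM factors, 0 with total counts, without a filter, with a filter of 10 counts in 3 libraries, with length offsets and with the replicate block, 5 with limma voom, 12 with DESeq2, 6 without both control replicates 1 and 2, and 0 to 7 over fits that left out 1 library each (7 without control replicate 2 or control replicate 3, and 0 otherwise). In the fit without both control replicates 1 and 2 the lone control library is assumed to vary like the libraries labelled Poxn. Members called higher numbered 2 without both control replicates 1 and 2 and 0 to 1 over the fits that left out 1 library, and 0 under the other settings. Calls over all genes moved in the same way. Without control replicate 2, 1484 of 9230 genes were called lower and 1106 higher, and without control replicate 3, 1083 of 9109 were called lower. With any other library left out 39 to 172 genes were called lower, against 444 of 8973 with all libraries. DESeq2 put 2 members past the study's criterion, Prosalpha3 and Prosalpha5, where edgeR put 0. Same-numbered libraries had correlations of their deviations of 0.123, 0.142 and -0.07, and differently numbered ones from -0.227 to 0.112. These values gave no sign of pairing, but with 3 libraries per group they cannot show that the samples were unpaired. Outside the replicate block setting, no replicate number was used as a block in the comparisons above.

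Over the 32 tested members the median log2 fold change, -0.36 with TMM factors, was -0.49 with RLE factors and with DESeq2, 1.12 with total counts, -0.24 without a filter and -0.18 with the replicate block. That of the core, -1.30, was 0.42 with total counts, -0.75 with length offsets and -0.59 without both control replicates 1 and 2. That of the regulatory particle, -0.09, was -0.22 with RLE factors and with DESeq2, 1.41 with total counts, 0.067 without a filter, -0.27 with length offsets, 0.14 without both control replicates 1 and 2, and -0.17 to 0.0077 with 1 library left out. Without the 50 most abundant genes the members' mean share was 8418 per 1000000 in libraries labelled Poxn and 6855 in those labelled control. The mean core to regulatory particle ratio was 1.78 per kb and 1.44 with the length trend divided out in libraries labelled Poxn, and 4.24 per kb in those labelled control. Poxn passed the threshold at 4.43 with total counts, 2.85 with DESeq2, 3.71 with limma voom, 4.50 without control replicate 2 and 4.27 without both control replicates 1 and 2, and ranged from 2.17 to 4.50 with 1 library left out.

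Over the 31 tested canonical genes, 25 values were negative and 6 positive with TMM factors, against 3 negative and 28 positive with total counts. Among the genes named by rule, changes of sign were found in 47 cases, 12 of them with total counts, all for genes that were not called with all 6 libraries and TMM factors. With total counts, where the median of all genes was 1.39, the log2 fold change was 0.33 for Prosbeta2, 0.54 for Prosbeta5, 1.18 for Rpn11, 0.82 for Prosalpha2, 1.40 for Rpt3, 1.43 for Rpt5, 1.48 for Rpn7, 1.23 for Rpn5, 0.96 for Rpt3R, 1.40 for cnc, 1.41 for Pomp and 0.98 for PI31. Without a filter it was 0.024 for Rpn11, 0.11 for Rpt5 and 0.16 for Rpn7. With length offsets it was 0.039 for Rpn11, -0.042 for Rpn13, -0.39 for Rpn2, 0.030 for Pomp and -0.25 for REG. With RLE factors and with DESeq2 it was -0.063 and -0.064 for Rpn13 and -0.071 for Rpn2. With limma voom it was 0.031 for Rpn7, 0.060 for Rpn5 and 0.028 for cnc. Without both control replicates 1 and 2 it was 0.050 for Rpt3, 0.14 for Rpt5, -0.35 for Rpn13, 0.25 for Rpn7, 0.76 for Rpn5, 0.88 for cnc, which passed the threshold there (adjusted p = 0.0271, edgeR), 0.24 for Pomp and -0.092 for REG. With 1 library left out it ran from -0.39 to 0.21 for Rpt3, -0.16 to 0.054 for Rpt5, -0.24 to 0.34 for Rpn13, -0.24 to 0.67 for Rpn2, -0.14 to 0.14 for Rpn7, -0.82 to 0.45 for Rpn5, -0.49 to 0.34 for Rpt3R, -0.68 to 0.39 for cnc, -0.58 to 0.27 for Pomp and -0.22 to 0.51 for REG. The cause of these changes was not tested. The planned share of promoters with a motif was not computed. The highest effective library size was 30066751 counts (Poxn replicate 2) and the lowest 3180073 (control replicate 1), and 15 of the 16 paralogs did not pass the filter on low counts.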

Other observations

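Sem1, a small subunit of the lid whose symbol falls outside the naming rule, had 56.8, 37.0 and 52.9 CPM in Poxn replicates 1 to 3 and 699.4, 176.6 and 122.5 CPM in control replicates 1 to 3. Its log2 fold change was -2.77 ± 0.71 (SE; adjusted p = 0.0513, edgeR) and -0.51 with length offsets, and its longest transcript is 427 nt. It was chosen after its values were seen. The 8 lid genes within the rule ran from -0.59 to 0.30.

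Ubiquitin itself is encoded by 2 polyubiquitin genes and 2 ribosomal fusion genes in flies. With the activating enzyme gene Uba1, 5 genes were tested, with a median log2 fold change of -2.69 and 0 calls, and 4 of them were lower at an unadjusted p under 0.05 in edgeR, against 17.8% of all genes. The fusion genes RpL40 and RpS27A, named after their values were seen, have transcripts of 659 and 592 nt. Their log2 fold changes were -2.69 and -3.09, and -1.30 and -1.66 with length offsets. The polyubiquitin genes Ubi-p63E and Ubi-p5E, with transcripts of 2759 and 2390 nt, were at -2.89 and -2.57, and at -3.36 and -3.13 with length offsets. Ubi-p63E had 1069, 689 and 1233 counts in Poxn replicates 1 to 3 and 366, 3472 and 535 in control replicates 1 to 3, so that control replicate 2 stood far above all other libraries. Uba1 was at -0.04 ± 0.37 (SE; adjusted p = 0.950, edgeR).

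Control replicate 2 ordered the members differently from the other libraries. Spearman's rho of levels per length over the 31 genes was 0.954 between control replicates 1 and 3 but 0.815 and 0.816 between control replicate 2 and these. Prosalpha2 held rank 13 there and rank 4 in each other library, and Prosalpha3 held rank 2 there and rank 6 in the other control libraries.

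Poxn replicate 3 held 3518 counts on 3 male accessory gland genes, against 51 and 40 in Poxn replicates 1 and 2 and 9, 3 and 31 in control replicates 1 to 3. The subunit genes together took 5898 of every 1000000 gene counts in Poxn replicate 3, against 6027 and 5912 in Poxn replicates 1 and 2.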
